A study of Mus musculus with 60 samples.

Results

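Squamous cell carcinomas (SCC) of mouse skin were compared by the lymph node label of their host. Tumors were taken where the histology label read SCC and the nodal status label read 1, called node-positive here, or 0, called node-negative. The labels give these codes without a key. Tumors with no nodal label were left out. This selected 27 of the 60 tumors in the series: 11 node-positive tumors from 10 mice and 16 node-negative tumors from 14 mice. Where a mouse had given 2 tumors their mean was taken, and the replicates are thus 24 of the 55 mice. A further 11 SCC had no nodal label and entered no comparison.

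All 24 mice were FVBBX animals, made by crossing Mus spretus (SPRET/Ei) with FVB/N and backcrossing the hybrids to FVB/N, so each animal carries its own mixture of alleles. Back skin of both groups had been treated with DMBA, a mutagen, and then with TPA, a promoter of papillomas. The sex label read female in 6 of 10 node-positive and 8 of 14 node-negative mice. Each tumor was read on an Affymetrix 3′ expression array, and every level below is a log2 value normalized by the authors with RMA. A log2 difference of 1 is a doubling of signal, and differences are node-positive minus node-negative unless another order is given.

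Skin carcinomas reach the draining lymph node through lymphatic vessels that enter from the surrounding dermis. Squamous tumors keep parts of the keratinocyte program: basal cells make Krt5 and Krt14, differentiating cells make cornified envelope proteins, and desmosomes and tight junctions hold the cells together. Mast cells, vessels, fibroblasts, fat and the thin muscle layer under the skin add their own RNA to a piece of tumor. In such bulk samples fewer cells of a type and less RNA per cell cannot be told apart.

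Most other labels were spread over both groups. SCC were well differentiated in 4, moderately in 3 and poorly in 3 node-positive mice, against 5, 6 and 3 node-negative mice. The p53 label read mutant in 2 of 10 node-positive and 4 of 14 node-negative mice. A label called tumor class, whose meaning the sources used here do not give, read 1 in 3 node-positive mice and 1 node-negative mouse. The latter was mouse 9, which gave a tumor of class 1 and a tumor of class 2 and was counted by its first. Its class 2 tumor stayed in the fits of tumor class 2 alone. That label read 1 in 5 of all 38 SCC tumors and in 9 of the 14 spindle carcinomas, the undifferentiated form of this disease. Papillomas at 20 weeks numbered 0 to 21 (median 4.5) in node-positive and 0 to 16 (median 5.5) in node-negative mice. Over the 7 labels tested the smallest p was 0.27 (tumor class, two-sided Fisher exact test, adjusted p = 1). The others were sex, coat, p53, papillomas at 20 and at 24 weeks, and weeks to first papilloma. Grade and origin were not tested. Of 19 cages 5 held mice of both groups, 5 node-positive and 5 node-negative. The origin label F1BSF3 occurred in 4 node-negative mice and in no node-positive mouse.

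Several arrays stand apart and touch the results. The tumor of node-positive mouse 5 and 1 of the 2 tumors of node-negative mouse 9 correlated at r = 0.986 over the genes tested, above the next pair from different mice among these 27 tumors (0.964) and above the pairs from the same mouse (0.871, 0.937 and 0.979). Over all 60 arrays 1 other pair labelled as different mice, neither of them compared here, was as close (0.985). The 2 arrays differ in node label, mouse number and grade, and share cage, origin, sex, coat, p53 and tumor class labels. Xist and Y-linked genes went against the sex label in node-positive mouse 6 and in node-negative mouse 2, and both signals were present in node-negative mouse 8. Node-positive mice 1, 8 and 10 exceeded every node-negative mouse in striated muscle markers, with means of 10.1, 10.5 and 9.31 over 14 genes, against 6.34 to 8.09 in node-negative mice. The 3 node-positive mice of tumor class 1 were mice 1, 5 and 6. The 3′ minus 5′ log2 difference of Gapdh, a measure of RNA integrity, averaged 0.20 ± 0.21 in node-positive and 0.094 ± 0.13 in node-negative mice (SD, n = 10 and 14, permutation test, two-sided, p = 0.13).

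No gene separated the 2 groups. With limma across 12791 genes, 0 genes passed a Benjamini-Hochberg adjusted p of 0.05, and the smallest adjusted p was 0.44. At an unadjusted p under 0.05, 1282 genes passed (10%), 680 of them higher in node-positive SCC (5.32%) and 602 lower (4.71%). Means were higher in node-positive SCC for 6981 genes (54.6%). The ranges of the groups overlapped for every gene tested. A SAM-type statistic, which ranks genes by difference over an inflated error, called 20 genes (0.156%) at a false discovery rate of 5%, 2 higher and 18 lower. The 2 were Ltbp1 and Cma1. The 18 included the keratinocyte genes Sprr3, Ecm1, Cnfn, Sprr2d, Krt19 and Tjp3. The median difference over all genes was 0.02. The number of mice limits the precision. Gene lists are therefore described by counts at the unadjusted threshold, where higher and lower refer to genes past it, and are read beside these background shares.

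**Figure D1:**
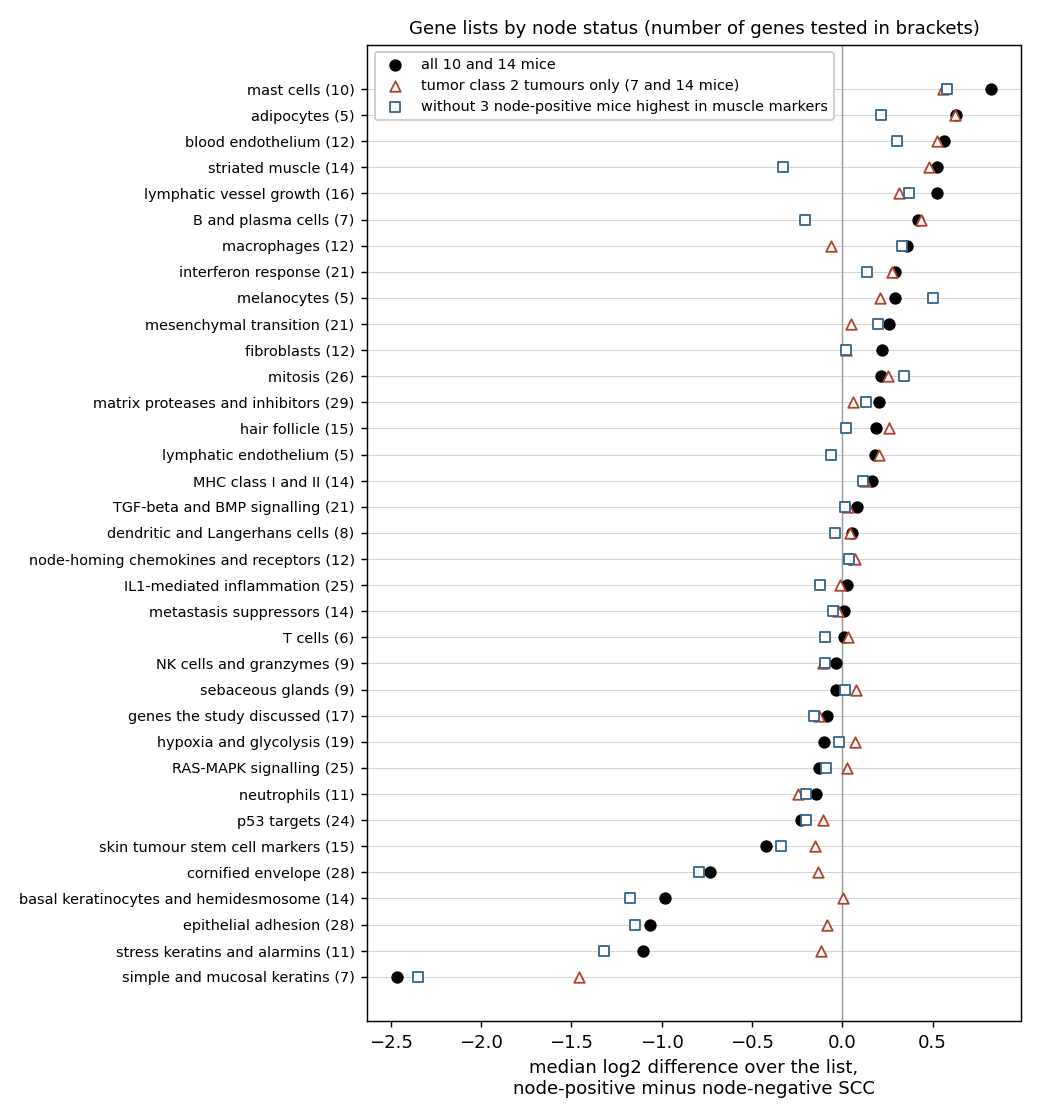
Median log2 difference, node-positive minus node-negative SCC, over the genes of each list (number of genes tested in brackets). Filled circles use all 10 and 14 mice, open triangles only tumors of tumor class 2, and open squares leave out the 3 node-positive mice highest in muscle markers. Mast cell markers lie highest at 0.82 and simple and mucosal keratins lowest at -2.46 with all mice.

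The lowest list was that of simple and mucosal keratins, the keratins of simple epithelia and of moist stratified linings such as the oral mucosa. All 7 genes had lower means in node-positive SCC, 4 passed the unadjusted threshold, and the median difference was -2.46. Krt13, a keratin of mucosal linings that marks progression in skin tumors, spanned 3.41 to 12.7 (median 6.49) in node-positive mice, against 4.73 to 12.8 (median 11.2) in node-negative mice. Its partner Krt4 had 4.34 to 13.1 (median 5.11) in node-positive mice and 4.60 to 13.1 (median 9.89) in node-negative mice. Node-positive mouse 7 alone was high for Krt4 among the 10, at 13.1, and the next stood at 7.15.

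Krt19 and Krt7, keratins of simple and ductal epithelium, followed the same order. Krt19 lay between 2.99 and 11.1 (median 3.94) in node-positive mice, against 3.76 to 11.4 (median 7.47) in node-negative mice. Krt7 lay between 4.10 and 10.8 (median 6.08) in node-positive mice, against 5.03 to 12.6 (median 10.1) in node-negative mice. For Krt4, Krt13 and Krt19, 9 of 10 node-positive mice were under the node-negative median, and for Krt7 8 of 10 were. The differences were -3.00 ± 1.19 for Krt4, -2.88 ± 1.17 for Krt13, -2.84 ± 0.98 for Krt19 and -2.46 ± 1.01 for Krt7 (standard error, limma, unadjusted p = 0.018, 0.021, 0.0078 and 0.023, adjusted p = 0.45 for each). The other probe sets of Krt13 and Krt4 gave -2.07, -1.86 and -2.61. The overlap of the groups was nearly complete for all 4 genes, and node-negative mice 9 and 11 were low for all 4. Krt8, another simple keratin, did not follow, at 5.42 to 12.1 (median 11.0) in node-positive and 6.70 to 12.4 (median 9.86) in node-negative mice.

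**Figure D2:**
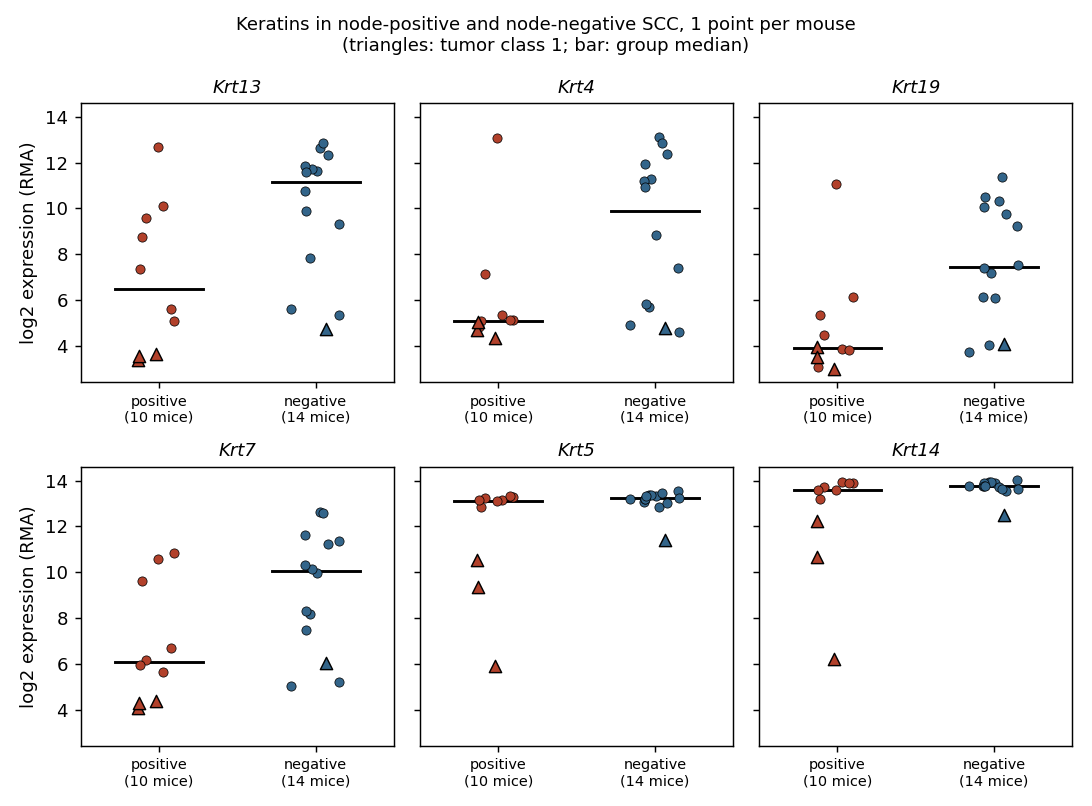
Log2 expression of 6 keratins in each mouse, node-positive SCC on the left and node-negative SCC on the right. The bar is the group median and triangles mark mice of tumor class 1. Node-negative mouse 9, a mean over a tumor of each class, is marked by its first tumor. Krt13, Krt4, Krt19 and Krt7 are low in most node-positive mice, while Krt5 and Krt14 are low only in node-positive mice 1, 5 and 6 and in node-negative mouse 9.

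Basal keratins showed another distribution. Krt5 had a median of 13.1 in node-positive and 13.2 in node-negative mice, but its lowest values were 5.94 and 11.4 in these groups. The node-positive mice under 12 were mouse 1 at 10.5, mouse 5 at 9.35 and mouse 6 at 5.94, all of tumor class 1. Krt14 spanned 6.22 to 13.9 (median 13.6) in node-positive mice, against 12.5 to 14.0 (median 13.7) in node-negative mice. The lowest node-negative value of both genes was that of mouse 9, a mean over a tumor of class 1 and a tumor of class 2. Its class 1 tumor was the one nearly identical to the tumor of node-positive mouse 5, so the mean can hide a low value. Trp63, the transcription factor that maintains basal keratinocytes, averaged 0.99 lower in node-positive SCC although 7 of 10 node-positive mice were above the node-negative median. Of 14 basal and hemidesmosome genes all had lower means and 2, Krt5 and the hemidesmosome integrin Itgb4, passed the unadjusted threshold, with a median difference of -0.98. With tumors of tumor class 2 alone, 0 of the 14 were lower at that threshold, 1 was higher and the median was 0.00. The count of 2 became 0 without node-positive mouse 1 or mouse 6 and 6 without mouse 7 or mouse 9. Of all genes 443 passed in either direction with tumor class 2 alone, against 1282 in the main fit. Without node-positive mouse 1, 6, 7 or 9 that number was 832, 785, 1898 and 1486.

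Genes of cell adhesion were lower as a group on the means. Of 28 genes 27 had lower means in node-positive SCC and 12 passed the unadjusted threshold, with a median of -1.06. Tjp3, a scaffold protein of tight junctions, lay between 4.05 and 6.22 (median 4.30) in node-positive mice, against 4.45 to 8.23 (median 6.04) in node-negative mice. Its difference was -1.48 ± 0.37 (limma, unadjusted p = 5.7e-04, adjusted p = 0.45), and 9 of 10 node-positive mice were under the node-negative median. The plakins Ppl and Evpl, which tie desmosomes to the cornified envelope, differed by -1.39 and -1.31. Dsc2, a desmosomal cadherin, differed by -1.94 and the tight junction protein Cldn4 by -1.67. Cdh1, the main cadherin of epithelial cells, had a median of 9.44 in node-positive and 9.74 in node-negative mice and a difference of -0.88 ± 0.51 (unadjusted p = 0.099).

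The mean level over the 28 adhesion genes was 6.77, 6.04 and 4.62 in node-positive mice 1, 5 and 6 and 8.34 to 9.41 in the other 7, against 7.33 to 9.62 in node-negative mice. Mouse 6, which is labelled well differentiated, was the lowest of all 24. The count of 12 lower genes became 5 without that mouse and 7 without mouse 5. It was 2 without the arrays that go against their sex label, and 1 with tumors of tumor class 2 alone, where the median was -0.09. Of all genes 785, 1046, 627 and 443 passed in either direction in those settings, against 1282 in the main fit. The mucosal and simple keratins had a median of -1.86 without the arrays against the sex label and -1.46 with tumor class 2 alone, with 1 of 7 genes lower at the unadjusted threshold in each case. Within the well differentiated SCC (4 and 5 mice) the adhesion median was -2.16 and the keratin median -3.36. Within the moderately differentiated SCC (3 and 6 mice) the same medians were 0.06 and 0.04. Within the poorly differentiated SCC (3 mice in each group) they were -0.81 and -2.32. In mice labelled p53 mutant (2 and 4) the adhesion median was 0.30, with 27 of 28 means higher in node-positive SCC, and the keratin median -0.69. In the other mice (8 and 10) they were -1.49 and -3.07. Of the 3 node-positive mice lowest in adhesion genes, mice 1 and 6 were labelled well and mouse 5 poorly differentiated. None of these 3 was labelled p53 mutant. Their part in the medians by grade and p53 label was not tested.

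Cornified envelope genes, made by the uppermost keratinocytes, were split. Of 28 genes 8 were lower at the unadjusted threshold, none was higher, 6 had higher means, and the median was -0.73. Sprr3, a small proline-rich protein of the envelope that is abundant in mucosal linings, spanned 4.11 to 13.3 (median 7.13) in node-positive mice, against 5.27 to 13.4 (median 11.3) in node-negative mice. Its difference was the largest of any listed gene, -3.38 ± 1.02 (unadjusted p = 0.0028). Cnfn, another envelope component, spanned 4.17 to 12.3 (median 9.94) in node-positive mice, against 8.69 to 13.2 (median 12.0) in node-negative mice. Its difference was -2.46, and that of Tgm1, the enzyme that crosslinks the envelope, -1.56. Krt10, the keratin of the suprabasal epidermis, stood at 5.76 to 10.7 (median 9.76) in node-positive and 6.04 to 12.4 (median 8.42) in node-negative mice, with a difference of 0.08 ± 0.82. Levels of the cornified list averaged over its genes were lowest in node-positive mouse 6, at 4.07, without which 5 of 28 genes were lower. Without that mouse 785 of all genes passed in either direction, against 1282 in the main fit.

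Stress keratins and alarmins, which injured or hyperplastic epidermis makes, included 11 genes with lower means, 3 of them at the unadjusted threshold, and a median of -1.10. Sprr2d differed by -2.08 ± 0.66, Krt16 by -1.67 ± 0.72 and Il1f9, an IL1-family cytokine, by -1.10 ± 0.38. Krt16 had 3.80 to 12.8 (median 11.6) in node-positive mice, against 10.7 to 13.1 (median 12.6) in node-negative mice. Ecm1, an extracellular protein of skin, was 1 of the genes of smallest p overall. It lay between 10.4 and 12.4 (median 10.9) in node-positive mice, against 11.1 to 12.7 (median 12.4) in node-negative mice, a difference of -1.02 ± 0.23 (limma, unadjusted p = 1.7e-04, adjusted p = 0.44).

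Mast cell markers were the list that stood highest. Of 10 genes 9 had higher means in node-positive SCC, 7 passed the unadjusted threshold and none was lower at it, with a median of 0.82. Cma1, a chymase stored in mast cell granules, lay between 6.23 and 9.26 (median 7.32) in node-positive mice, against 4.80 to 7.57 (median 6.19) in node-negative mice. Mcpt4, another granule chymase, lay between 6.54 and 8.69 (median 7.34), against 5.38 to 8.09 (median 6.42) in node-negative mice. Fcer1a, a chain of the IgE receptor, lay between 4.36 and 7.29 (median 5.85), against 3.02 to 6.75 (median 4.32) in node-negative mice. For each of these 3 genes all 10 node-positive mice were above the node-negative median, although the ranges overlapped.

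Cma1 differed by 1.37 ± 0.40 (a 2.59-fold difference, limma, unadjusted p = 0.0021, adjusted p = 0.45), Fcer1a by 1.17 ± 0.39 and Mcpt4 by 0.97 ± 0.33. The protease Cpa3 differed by 0.97 ± 0.38, the stem cell factor receptor Kit by 0.71 ± 0.21 and the transcription factor Gata2, which mast cells need, by 0.89 ± 0.30. Hdc, the enzyme that makes histamine, was the exception at 6.22 to 8.37 (median 7.72) in node-positive and 7.00 to 8.81 (median 7.81) in node-negative mice. Kit is also made by melanocytes and Gata2 by endothelium. The list median was 0.58 without the 3 mice highest in muscle markers (5 of 10 genes higher), 0.68 without the arrays against the sex label (5 of 10) and 0.56 with tumor class 2 alone (3 of 10). Of all genes 241, 322 and 267 were higher in those settings, in the same order, against 680 in the main fit. The list median was 0.68 to 1.00 as each mouse was left out in turn. Within origins it was 1.22 (F1BSF1, 3 and 2 mice), 0.60 (F1BSF2, 2 and 2 mice) and 1.17 (F1BSF4, 5 and 6 mice). By grade it was 1.20 in well, 0.22 in moderately and 1.36 in poorly differentiated SCC, and by p53 label 0.31 in mutant and 1.06 in other mice.

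**Figure D3:**
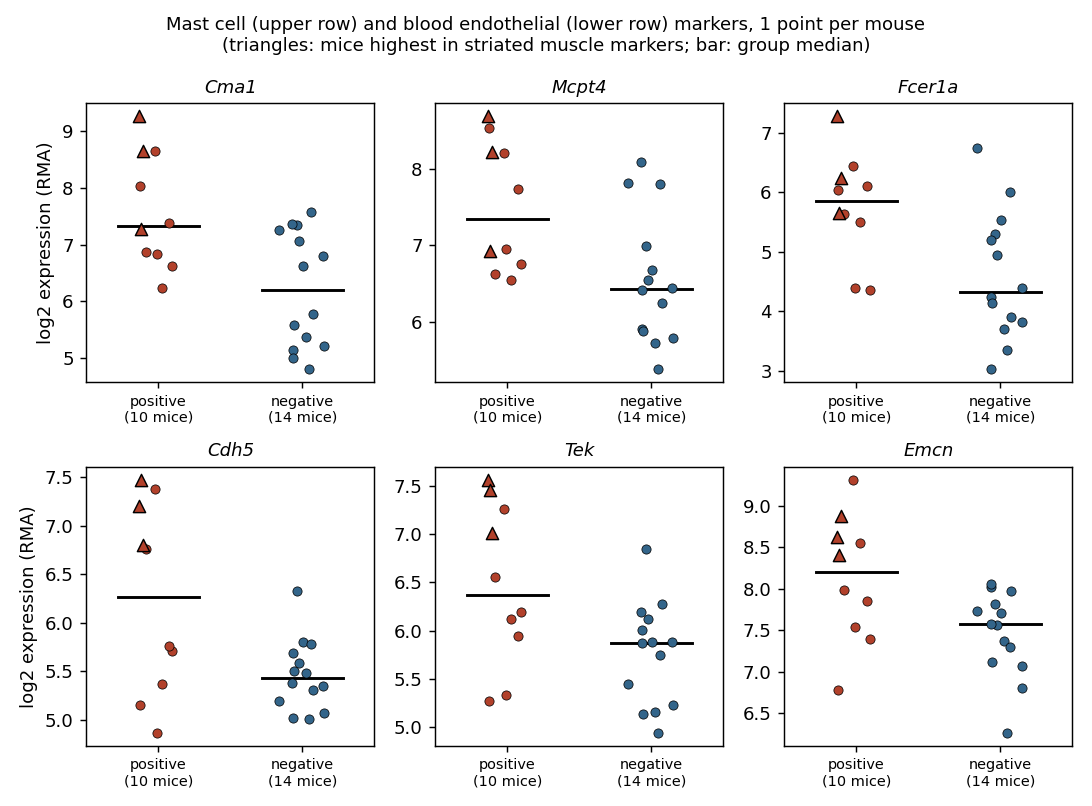
Log2 expression of 3 mast cell markers (upper row) and 3 blood endothelial markers (lower row) in each mouse, node-positive SCC on the left and node-negative SCC on the right; the bar is the group median and triangles mark node-positive mice 1, 8 and 10. Every node-positive mouse is above the node-negative median for the mast cell genes, and the triangles are among the highest points for Cdh5 and Tek.

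Blood endothelial markers were higher on the means in node-positive SCC for all 12 genes, and 10 passed the unadjusted threshold, with a median of 0.56. Kdr, the main receptor for VEGF on vessels, lay between 6.38 and 8.26 (median 6.99) in node-positive mice, against 6.13 to 7.12 (median 6.56) in node-negative mice. Cdh5, the cadherin of endothelial junctions, lay between 4.86 and 7.47 (median 6.26), against 5.01 to 6.33 (median 5.43) in node-negative mice. Kdr differed by 0.65 ± 0.20 and Cdh5 by 0.78 ± 0.27 (limma, unadjusted p = 0.0033 and 0.0081, adjusted p = 0.45 for both). A second probe set of Cdh5 gave 0.23. Ramp2, Tek, Emcn and Pecam1, further genes of the vessel wall lining, differed by 0.70, 0.70, 0.68 and 0.60.

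Among the genes of smallest p, 3 others are known from endothelium. Cd300lg, a sialomucin of capillaries, differed by 0.78 ± 0.17 (unadjusted p = 1.5e-04, adjusted p = 0.44) and its node-negative mean was under every array's median. Nos3, the endothelial nitric oxide synthase, lay between 5.57 and 7.27 (median 6.24) in node-positive mice, against 5.19 to 6.14 (median 5.74) in node-negative mice. Scarf1, a scavenger receptor, differed by 0.40 ± 0.11.

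The endothelial values were highest in mice that were also high in muscle or fat markers, whose part in the result was not tested. The mean over 14 striated muscle genes ranged from 5.93 to 10.5 (median 7.03) in node-positive mice, against 6.34 to 8.09 (median 7.18) in node-negative mice, and 0 of the 14 passed the unadjusted threshold in either direction. The mean over 5 fat markers ranged from 5.74 to 9.75 (median 6.63), against 5.91 to 7.63 (median 6.75) in node-negative mice. Mean endothelial levels were 7.92, 8.16 and 7.99 in the muscle-rich node-positive mice 1, 8 and 10 and 8.30 in mouse 6, which was the second highest in fat markers at 8.98. The other 6 node-positive mice had 6.14 to 7.46, against 6.05 to 7.33 in node-negative mice. Without mice 1, 8 and 10, 0 of the 12 genes passed the unadjusted threshold and the median was 0.30. With tumor class 2 alone 7 of 12 were higher (median 0.53), and without the arrays against the sex label 3 of 12 (median 0.42). In those 3 settings 241, 267 and 322 of all genes were higher, in the same order, against 680 in the main fit. The count of 10 became 5 without mouse 6 or mouse 8 and 6 without mouse 10, where 408, 529 and 592 of all genes were higher.

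**Figure D4:**
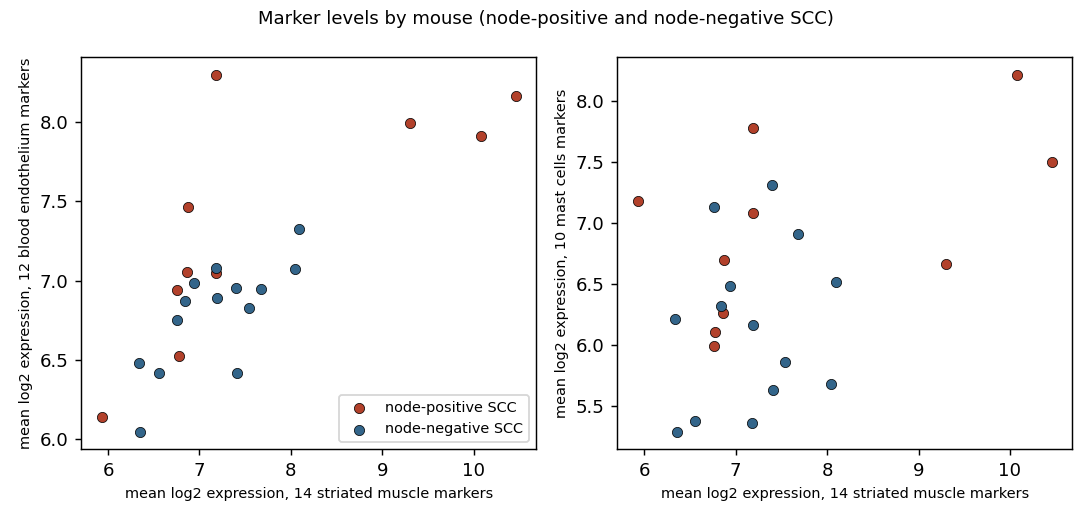
Mean log2 expression of 12 blood endothelial markers (left) and 10 mast cell markers (right) against that of 14 striated muscle markers, 1 point per mouse, node-positive and node-negative SCC in separate colors. The 3 node-positive mice beyond 9 on the horizontal axis have endothelial means of 7.92 to 8.16, above all node-negative mice.

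Genes of lymphatic vessel growth all had higher means. The list holds ligands and receptors, among them Kdr, Vegfa and Hgf, and transcription factors such as Foxc2, and not all are particular to lymphatics. Of 16 genes 3 passed the unadjusted threshold, with a median of 0.52. Those 3 were Kdr, Tek and Flt4, of which the first pair is also on the blood endothelial list. The count ranged from 2 to 8 as each mouse was left out (8 without node-positive mouse 7, 7 without mouse 2, 6 without mouse 9 or node-negative mouse 9), and was 6 with cage as a random or a fixed block. In those settings 1043, 736, 786, 949, 901 and 729 of all genes were higher, in the same order, against 680 in the main fit. Mean levels over the 16 genes were highest in node-positive mice 6, 8, 10 and 1, at 7.607, 7.317, 7.203 and 7.115. The other node-positive mice had 6.155 to 6.846, against 5.89 to 6.965 in node-negative mice. Flt4, the receptor for VEGF-C and VEGF-D, lay between 5.47 and 6.99 (median 5.97) in node-positive mice, against 4.65 to 7.11 (median 5.50) in node-negative mice, a difference of 0.52 ± 0.22 (unadjusted p = 0.025, adjusted p = 0.46). A second probe set of Flt4 gave 0.17 (p = 0.25). The ligands themselves had wider spreads. Vegfc spanned 4.27 to 8.88 (median 7.33) in node-positive mice, against 4.24 to 8.21 (median 6.13) in node-negative mice, a difference of 0.82 with a 95% interval of -0.19 to 1.83. Vegfd differed by 0.56 (-0.31 to 1.42), Angpt1, a ligand of Tek, by 0.89 (-0.04 to 1.82) and the co-receptor Nrp2 by 0.53 (-0.04 to 1.10). Other probe sets gave 0.52 and 0.35 for Vegfc, 0.73 (unadjusted p = 0.025) and 0.66 for Vegfd, and 0.29 (p = 0.33) for Angpt1.

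Lyve1, the hyaluronan receptor of lymphatic vessels that some macrophages also carry, spanned 5.48 to 10.7 (median 7.75) in node-positive mice, against 4.85 to 9.12 (median 6.39) in node-negative mice. Its difference was 1.20 ± 0.60 (unadjusted p = 0.058), and a second probe set gave 1.13 (unadjusted p = 0.031). Of 5 lymphatic endothelial markers tested, Flt4 alone passed, and the median was 0.18, or -0.06 without the muscle-rich mice. Prox1, the master regulator of lymphatic identity, was too dim to be tested.

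Chemokines and receptors of node homing gave 1 gene in 12. Cxcl12, which draws cells that carry Cxcr4, spanned 7.11 to 11.5 (median 9.35) in node-positive mice, against 6.70 to 9.51 (median 8.10) in node-negative mice, a difference of 1.19 ± 0.45 (unadjusted p = 0.015, adjusted p = 0.45). Cxcr4 differed by -0.23 (-0.66 to 0.20) and Ccr7, the receptor that guides cells into lymphatics, by 0.21 (-0.17 to 0.59). The median of the list was 0.04.

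Connective tissue genes differed in a few members. Among 12 fibroblast markers 3 passed, with a median of 0.22: the small proteoglycan Dcn by 1.00 ± 0.38, the matrix protein Dpt by 1.22 ± 0.45 and the receptor Pdgfra by 0.83 ± 0.40. None of the 12 passed with tumor class 2 alone, where 267 of all genes were higher, against 680 in the main fit. Among 21 genes of mesenchymal transition, S100a4 and Tgfbi passed, with a list median of 0.26. S100a4, a calcium-binding protein of motile cells, fibroblasts and macrophages, lay between 10.9 and 13.6 (median 11.6) in node-positive mice, against 9.94 to 12.1 (median 10.7) in node-negative mice, and Tgfbi, a matrix protein induced by TGF-beta, differed by 0.76 ± 0.25. All 10 node-positive mice were above the node-negative median for both genes. The list's count of 2 became 7 without node-positive mouse 7, 4 without mouse 4, 5 without node-negative mouse 9, and 10 with cage as a fixed block. Of all genes 1043, 882, 949 and 729 were higher in those settings, against 680 in the main fit. Vim differed by 0.63 (-0.06 to 1.32), with 0.69 and 0.58 from other probe sets (unadjusted p = 0.025 and 0.032), and the transcription factor Zeb1 by 0.62 (-0.14 to 1.38).

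Ltbp1, which binds latent TGF-beta to the matrix, had the largest difference among the higher genes of smallest p. It lay between 6.16 and 9.53 (median 8.39) in node-positive mice, against 4.93 to 8.03 (median 6.83) in node-negative mice, and differed by 1.63 ± 0.42 (limma, unadjusted p = 7.5e-04, adjusted p = 0.45). The co-receptor Tgfbr3 differed by 1.10 ± 0.36. These were the only 2 of 21 genes of TGF-beta and BMP signaling to pass, and the list median was 0.08. Of 29 matrix proteases and inhibitors, Timp3 (1.05 ± 0.39) and Mmp19 (0.72 ± 0.29) passed. That count ranged from 1 without node-positive mouse 6 to 6 without mouse 7. In those fits 408 and 1043 of all genes were higher, against 680 in the main fit. Adamts1, a protease of proteoglycans outside that list, lay between 7.90 and 9.58 (median 8.13) in node-positive mice, against 6.27 to 8.53 (median 7.53) in node-negative mice.

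RAS-MAPK genes lay on both sides, with 2 of 25 higher at the unadjusted threshold, 4 lower and a median of -0.13. The lower count was 2 without node-positive mouse 1 and 7 without mouse 9. Of all genes 832 and 1486 passed in either direction in those fits, against 1282 in the main fit. Btc, an EGF receptor ligand, lay between 3.75 and 5.62 (median 4.60) in node-positive mice, against 4.45 to 6.86 (median 5.81) in node-negative mice. Its difference was -1.09 ± 0.26 (unadjusted p = 3.3e-04, adjusted p = 0.45). Dusp5, a phosphatase that acts on nuclear ERK, lay between 7.02 and 8.86 (median 7.86), against 7.86 to 9.95 (median 8.98) in node-negative mice, a difference of -0.86 ± 0.23. All 10 node-positive mice were under the node-negative median for both. Dusp4 differed by -0.65, Spry4 by 0.38 and the immediate early gene Fos by 0.46. Spry2 (0.13), Map2k4 (-0.18) and Ccnd1 (-0.25) did not pass. Other probe sets of Ccnd1 gave -0.16 and -0.37 (limma, unadjusted p = 0.38 and 0.043).

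Lists of immune cells other than mast cells had at most 2 genes past the unadjusted threshold. Itgax, the integrin CD11c of dendritic cells and some macrophages, lay between 4.54 and 7.07 (median 6.59) in node-positive mice, against 5.89 to 8.84 (median 7.34) in node-negative mice, and all 10 node-positive mice were under the node-negative median. Among 12 macrophage genes the mannose receptor Mrc1 was higher by 0.78 ± 0.31 and arginase Arg1 lower, with a difference of -0.86 ± 0.38. The granzyme Gzmc differed by -1.12 ± 0.40, and its node-positive mean was under every array's median. Gzmd (-1.25, -2.68 to 0.18), whose node-positive mean was also under every array's median, and Gzme (-1.02, -2.64 to 0.60) did not pass, and Gzme spanned 3.60 to 8.94 (median 7.87) in node-positive and 4.89 to 11.2 (median 8.22) in node-negative mice. None of 6 T cell genes passed (median 0.01), and Ptprc, the pan-leukocyte marker CD45, differed by 0.17 (-0.33 to 0.66). The neutrophil receptor Csf3r differed by -0.60.

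Among 25 genes of IL1-mediated inflammation 2 were higher and 2 lower. With cage as a fixed block 6 were higher and 1 lower, where 729 of all genes were higher, against 680 in the main fit. The monocyte chemokine Ccl2 lay between 7.69 and 10.2 (median 8.63) in node-positive mice, against 5.66 to 9.59 (median 7.76) in node-negative mice, a difference of 1.10 ± 0.41. The cytokine Il6 differed by 1.28 ± 0.58, the alarmin Il33 by -0.95 ± 0.46 and the neutrophil chemokine Cxcl5 by -0.65 ± 0.28. Il18 differed by 0.08 (-0.65 to 0.82). The interferon list had 3 of 21 higher, led by the antiviral gene Rsad2 (0.84 ± 0.30), and a median of 0.29. That count was 1 without node-positive mouse 1, 3 or 8, 7 without mouse 2, and 14 with cage as a fixed block (median 0.83), where 729 of all genes were higher. Without mouse 1, 3, 8 or 2 the higher genes over all numbered 450, 865, 529 and 736. Of 14 MHC genes the immunoproteasome subunit Psmb8 passed (0.57 ± 0.27).

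Mitosis genes had 25 of 26 means above 0, against 54.6% of all genes, and a median of 0.22. Within origins 24 of 26 were above 0 in F1BSF1 and in F1BSF2, but 9 in F1BSF4 (5 and 6 mice, median -0.081). By p53 label 8 of 26 were above 0 in mutant mice (2 and 4, median -0.095) and 24 in the others. With all mice the genes that passed were Ccnb2 (0.52 ± 0.21) and Mki67 (0.46 ± 0.21). This count of 2 was 0 without node-positive mouse 7 and 4 without node-negative mouse 12, where 1043 and 719 of all genes were higher. Of 24 p53 targets 5 were lower at the unadjusted threshold (3 without node-positive mouse 1 or mouse 2), none was higher, and the median was -0.23. They included Mdm2, which degrades p53 (-0.24 ± 0.10), Sesn2 (-0.50 ± 0.19) and the death gene Pmaip1 (-1.08 ± 0.40). With tumor class 2 alone none of the 24 passed. Of all genes 443 passed in either direction there, against 1282 in the main fit. The number was 832 and 1336 without node-positive mouse 1 and mouse 2. Hypoxia genes gave 0 of 19. Myc, on the list of stem cell markers, lay between 7.55 and 8.67 (median 8.09) in node-positive mice, against 8.01 to 8.89 (median 8.53) in node-negative mice, a difference of -0.46 ± 0.13. Among 14 metastasis suppressors Gsn alone passed (0.42 ± 0.19), and among 17 genes discussed by the study Rdh11 alone (-0.52 ± 0.22). A second probe set of Rdh11 gave -0.36 (limma, unadjusted p = 0.20).

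The genes of smallest p included several that belong to none of the lists. The lowest p was that of Lyrm1, at 4.37 to 5.43 (median 4.72) in node-positive mice and 4.74 to 5.85 (median 5.36) in node-negative mice, a difference of -0.61 ± 0.13 (limma, unadjusted p = 8.5e-05, adjusted p = 0.44). Acsm3, a medium-chain acyl-CoA synthetase, lay between 3.31 and 5.19 (median 4.32) in node-positive mice, against 4.06 to 8.32 (median 5.97) in node-negative mice, and all 10 node-positive mice were under the node-negative median. Its node-positive mean was under every array's median. Acp6, a lysophosphatidic acid phosphatase, differed by -0.67 ± 0.15, Hebp2 by -1.06 ± 0.27, Leprotl1 by -0.35 ± 0.09, the stress gene Gadd45b by -0.77 ± 0.20 and 4833407H14Rik, whose node-positive mean was also under every array's median, by -0.76 ± 0.17. On the higher side Cisd2, an iron-sulfur protein, differed by 0.52 ± 0.14, Smyd4 by 0.50 ± 0.14, Zbed3 by 0.43 ± 0.12, Ppp2r3a by 0.40 ± 0.11 and Dpysl2 by 0.72 ± 0.20. All 10 node-positive mice were above the node-negative median for Cisd2 and Zbed3. Other probe sets above the array's median on at least 8 arrays gave -0.18 for Leprotl1, 0.34 and 0.0003 for Cisd2 and 0.22 for Smyd4. They gave -0.83 for Hebp2, -0.58 and -0.27 for Gadd45b, and 0.48 and 0.06 for Ppp2r3a.

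The main axis of variation was compared with the label as well. The first principal component of the genes tested held 30.9% of the variance, with scores turned so that they go up with Krt14. It averaged -19.0 ± 43.9 in node-positive and 13.6 ± 22.3 in node-negative mice (SD, permutation test, two-sided, p = 0.030, adjusted over 2 components p = 0.059). Node-positive mice 1, 5 and 6 had scores of -63.9, -68.6 and -96.2, and the other 7 had -21.1 to 40.6, against -34.7 to 46.1 in node-negative mice. The -34.7 was that of node-negative mouse 9, a mean over both of its tumors. The second component differed by 5.05 (p = 0.55).

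Spindle carcinomas with a nodal label, 5 tumors from 4 node-positive mice and 5 tumors from 5 node-negative mice, were fitted in 1 model with the SCC. The p53 label read mutant in node-positive mice 1 and 3 and node-negative mouse 2. Tumor class read 1 in node-positive mouse 4, 1 tumor of mouse 3 and node-negative mice 3, 4 and 5. Females were node-positive mice 1 and 4 and node-negative mice 2 and 3. All were poorly differentiated except node-negative mouse 2. Origin F1BSF4 occurred in node-negative mouse 1 only. None of these labels entered the model. The node difference in SCC minus that in spindle carcinomas passed the adjusted threshold for 0 of 12791 genes (smallest adjusted p = 0.65), and 936 passed unadjusted (7.32%). Within spindle carcinomas 0 genes passed adjusted and 566 unadjusted (4.42%), 307 higher (2.4%) and 259 lower (2.02%). The mast cell list ran the other way there, as did other lists given further below. Of its genes 7 of 10 were lower in node-positive spindle carcinomas at the unadjusted threshold and the median was -1.32.

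Cma1 measured 6.33, 6.46, 6.50 and 6.30 in node-positive spindle carcinomas, against 7.33, 6.93, 8.64, 8.62 and 7.20 in node-negative ones. Mcpt4 measured 5.36, 6.66, 6.07 and 6.43, against 7.11, 6.86, 8.51, 9.17 and 7.24 in node-negative ones. Fcer1a measured 4.04, 4.37, 4.62 and 3.95, against 5.48, 4.94, 8.15, 6.69 and 5.26 in node-negative ones. The spindle groups did not overlap for these 3 genes, nor for 147 of all genes tested (1.15%). The difference between the 2 node contrasts was 2.72 ± 0.71 for Cma1, 2.62 ± 0.64 for Mcpt4 and 3.03 ± 0.76 for Fcer1a (limma, unadjusted p = 5.9e-04, 2.9e-04 and 3.6e-04, adjusted p = 0.65 for each). In that test 8 of the 10 mast cell genes passed unadjusted. The sex check did not match the label on both arrays of node-positive spindle mouse 3, whose values lay within the range of the other 3 or, for Cma1 and Fcer1a, were the highest of the 4.

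**Figure D5:**
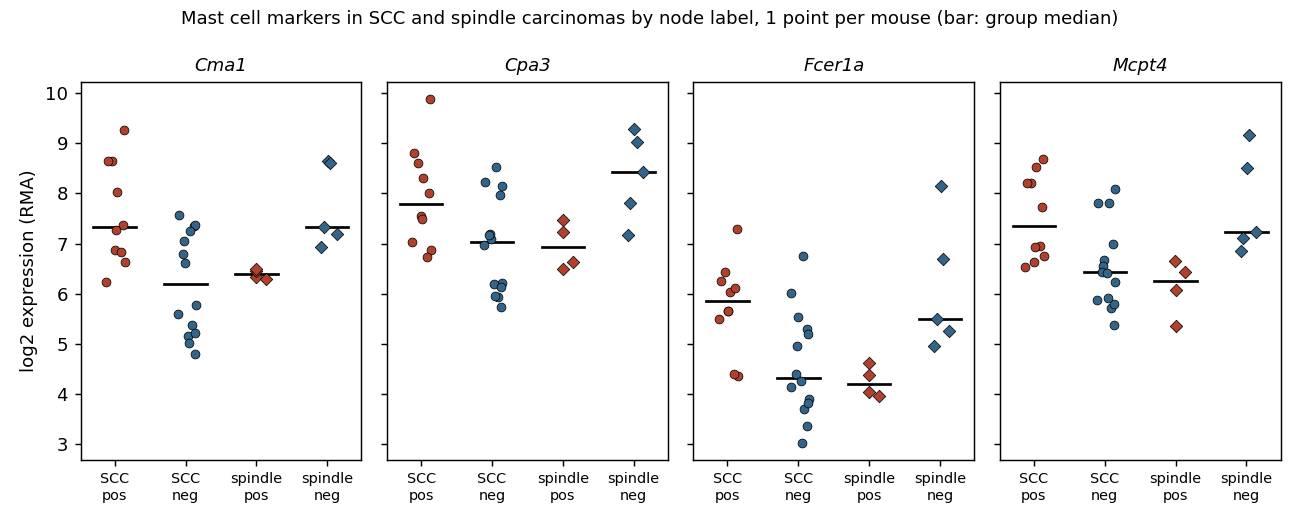
Log2 expression of 4 mast cell markers by mouse in node-positive and node-negative SCC (circles) and in node-positive and node-negative spindle carcinomas (diamonds), with group medians as bars. Medians are higher in node-positive than in node-negative SCC and lower in node-positive than in node-negative spindle carcinomas.

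The other leading lists gave these spindle values. Blood endothelial genes had a median of -0.34 in spindle carcinomas with 1 of 12 lower at the unadjusted threshold, and 5 passed the test of the difference. Epithelial adhesion genes had a median of 0.82, with 28 of 28 means higher in node-positive spindle carcinomas and 0 past the threshold, and 7 passed the test of the difference. Simple and mucosal keratins had a median of -0.04 and 0 of 7 passed either test. Means were higher in node-positive spindle carcinomas for 1 of 14 striated muscle, 0 of 5 fat, 1 of 9 sebaceous and 1 of 11 neutrophil genes. Of the neutrophil genes 4 were lower at the unadjusted threshold. Means were higher for 19 of 21 interferon and 18 of 19 hypoxia genes. Cxcl12 differed by -1.68 (limma, unadjusted p = 0.026), and its test of the difference gave unadjusted p = 0.0019 (adjusted p = 0.65).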

How the data were processed

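The authors deposited log2 expression values from Affymetrix 3′ expression arrays, which RMA had background-corrected, quantile-normalized and summarized per probe set. The table held 45101 probe sets, of which 34958 carried 1 gene symbol, 932 several and 9211 none here; 34754 matched RefSeq. Array medians were 4.43 to 4.56. For each of 18194 genes the probe set with the highest mean was used, and 12791 genes above the array's median on at least 8 arrays were tested. Tumors of a mouse were averaged first. Differences were fitted with limma 3.58.1 (R 4.3.3) and adjusted by Benjamini-Hochberg over all genes tested. Single values were compared by two-sided permutation tests (100000 resamples) or Fisher's exact test (scipy 1.17.1). A SAM-type statistic used 100 permutations. The code was tested on simulated data.

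The members and gene lists were chosen with earlier results of these data known. Named genes are the 10 of smallest p in each direction, none of which passed the adjusted threshold, up to 4 genes per list by size of difference, and a fixed panel. Genes outside this rule were chosen after their values were seen (Kdr, Kit, Gata2, Hdc, Pecam1, Nrp2, Krt8, Trp63, Tgm1, Evpl, Il1f9, Myc, Mdm2, Dusp4, Spry4, Fos and Cxcl5). Alternatives covered filters, probe set choice, scaling, covariates, subsets and leaving out each mouse. Near-identical arrays, tumor class 2 alone, muscle-rich mice and the cage blocks were added after seeing the data.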

Additional observations from a re-analysis of the deposited data

Results flagged for a closer look

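Dixon's test for a value far from the rest of its group picked out 9 of 151 sets of values, taken from node-positive SCC (genes and list means) and from the spindle groups. Chance alone picks out about 1 in 20. Node-positive mouse 7 was high for Krt4 (13.09, next 7.15) and for Krt19 (11.08, next 6.16). Node-positive mouse 6 was low for Krt14 (6.22, next 10.7) and Krt16 (3.80, next 9.17), and for the mean levels of the cornified envelope list (4.07, next 6.81) and the stress keratin and alarmin list (5.89, next 8.69). The sex label of that mouse did not match its Xist and Y-linked signals. Node-positive mouse 4 was high for Lyrm1 (5.43, next 4.85) and for the mean of the melanocyte list (7.29, next 5.70). Node-positive mouse 3 was high for the mean of the NK cell and granzyme list (5.67, next 4.43).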

How the results depend on the processing

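The count of genes past the adjusted threshold was 0 in all 25 limma alternatives, 20 by the SAM-type statistic, and 0 to 2 as each mouse was left out; the 2 were Lyrm1 and Acp6 (limma adjusted p = 0.048 for both) without node-positive mouse 4. The unadjusted count of 1282 became 2159 with every probe set, 577 with tumor class as covariate, 677 in well and moderately differentiated SCC, 627 without arrays against the sex label, 696 without these and the near-identical pair, 443 with tumor class 2 alone and 520 without the 3 muscle-rich mice. It ranged from 785 (without node-positive mouse 6) to 1898 as each mouse was left out, and was 832 without node-positive mouse 1. Signs turned for Il18 (-0.00085 with grade, -0.15 with tumor class, -0.019 without the near-identical arrays, -0.078 without these and those against the sex label, -0.19 with tumor class 2 alone), Krt8 (0.15 with origin, 0.053 where p53 was not mutant, 0.11 with cage as a fixed block), Spry2 (-0.0014 with origin, -0.41 with the fixed cage block), Hdc and Cxcl5 (0.47 and 0.031 with the fixed cage block), Krt10 (-0.014 and -0.78 with cage as a random and a fixed block, -0.015 with papillomas, -0.54 where p53 was not mutant, -0.32 in well and moderately differentiated SCC), Ptprc (-0.11 in well and moderately differentiated SCC, -0.043 with tumor class 2 alone, -0.21 without the muscle-rich mice), Cdh1 (0.0051) and Trp63 (0.33), both with tumor class 2 alone. As each mouse was left out, Il18 ranged from -0.073 to 0.21, Krt10 from -0.15 to 0.45 and Krt8 from -0.46 to 0.30. The causes were not tested. The other 2576 of 2598 gene fits kept their direction and side of the adjusted threshold. By replicate number, no paired analysis was possible because mouse numbers follow accession order. The cage label links 5 node-positive and 5 node-negative mice: the unadjusted count was 1677 with cage as a random block (correlation 0.23) and 1451 as a fixed block, which rests on those 5 cages, and 0 genes passed the adjusted threshold in both.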
